A study of Gallus gallus with 48 samples.

Results

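DUSP4, DUSP1, DUSP5, DUSP6, SPRY1 and SPRY2 are feedback inhibitors of MAP kinase signalling, and they are described here in the retina and retinal pigment epithelium (RPE) of chicks wearing a strong lens over 1 eye. All probe sets that the platform annotation assigns to these 6 genes were taken, which gave 9 of the 38535 probe sets on the array and 6 of the 13009 genes they name. DUSP4 had 3 probe sets, DUSP5 had 2, and the other 4 genes had 1 each. The genes were selected on measured values, because DUSP4 was lower in the lens eye in earlier results of the same arrays, and the others were chosen as its relatives in the pathway. The lens-minus-control differences of the 9 probe sets are therefore given as a description with no test of their size.

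White Leghorn chicks kept from 1 day of age under a 12-hour light:dark cycle received, at 1 week of age, a lens of -15 or +15 dioptres (D) on 1 eye for 3 days or 6 hours, while the fellow eye had no lens and served as control. The 4 conditions were -15 D for 3 days, +15 D for 3 days, -15 D for 6 hours and +15 D for 6 hours, each with 6 birds and each giving 6 lens eyes and 6 control eyes, so that 24 birds gave 48 Affymetrix Chicken arrays. Retina and RPE were taken as 1 sample, and all birds lived with a lens on 1 eye, so no eye of an untreated bird entered. Birds of a condition carried consecutive numbers, and the labels give no time of day for the sampling, so condition, cohort, age at sampling and time of day cannot be told apart. The values are log2 signals, and a difference of 1 is a doubling.

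MAP kinases such as ERK carry signals from growth factor receptors and from neuronal activity to the nucleus. The dual-specificity phosphatases (DUSPs) remove the activating phosphates from these kinases, and Sprouty proteins (SPRY1 and SPRY2) restrain the pathway further up, between the receptor and RAS. Transcription of many of these genes is itself raised by ERK activity, so the inhibitors form a negative feedback loop. DUSP4 and DUSP1 are nuclear phosphatases that act on ERK, JNK and p38, DUSP5 is a nuclear phosphatase selective for ERK, and DUSP6 is its cytoplasmic counterpart.

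Array medians lay between 6.38 and 6.50, and any pair of arrays correlated at 0.953 to 0.997. Cone genes GNAT2 (mean 12.4) and PDE6C (11.8), the Müller glia genes RLBP1 (12.5) and GLUL (13.7), and the RPE genes RPE65 (12.2) and TTR (11.6) were above background on every array, where background was 4.50, the 95th percentile of 541 probe sets for viral sequences. The smooth muscle myosin MYH11 ranged from 5.33 to 11.9 between arrays and the lens crystallin CRYAA from 3.39 to 12.4. The signal of marker genes of neighbouring tissue thus varied between samples, and its source was not tested. In such bulk samples fewer cells of a type and less RNA per cell cannot be told apart. In 3 birds (bird 1 of +15 D for 3 days, and birds 3 and 5 of -15 D for 6 hours) the 2 eyes differed over all probe sets by more than 1.5 times the median spread. The results that rest on them are given with and without them.

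Of the 9 probe sets, 7 lay above background. They were DUSP4 probe sets 1 (mean over the 48 arrays 8.68) and 2 (7.42), DUSP5 probe set 1 (11.3), and the single probe sets of DUSP1 (10.2), DUSP6 (12.4), SPRY1 (8.13) and SPRY2 (10.2). DUSP4 probe set 3 (2.98) and DUSP5 probe set 2 (4.21) lay below it.

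DUSP4 was lower in the lens eye than in the control eye of the same bird in 23 of 24 birds, under both lens powers and at both times. Probe set 1 averaged 8.39 ± 0.25 in lens eyes and 8.98 ± 0.22 in control eyes (SD, n = 24 each), a within-bird difference of -0.59 ± 0.24, or 1.51 times lower. Among all 38382 probe sets tested, this mean difference was the 12th most negative. Probe set 2 averaged 7.17 ± 0.25 in lens eyes and 7.67 ± 0.23 in control eyes, a difference of -0.50 ± 0.27 that was also negative in 23 of 24 birds. Both probe sets measured the same gene on the same arrays, so they are not independent measurements of the birds.

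After 3 days of -15 D, probe set 1 of DUSP4 had a lowest, median and highest value of 8.17, 8.42 and 8.60 in lens eyes, against 8.79, 9.01 and 9.28 in control eyes. After 3 days of +15 D the values were 7.89, 8.18 and 8.50 in lens eyes, against 8.77, 8.99 and 9.12 in control eyes. The ranges of the lens and control eyes did not overlap in either 3-day condition, and the lens eyes of the +15 D birds reached the lowest values of the series. The share of all probe sets with such a gap was not counted. After 6 hours of -15 D the values were 8.38, 8.45 and 8.69 in lens eyes, against 8.64, 8.94 and 9.30 in control eyes. With +15 D for 6 hours they were 8.25, 8.31 and 9.16 in lens eyes, against 8.79, 8.82 and 9.61 in control eyes. The ranges overlapped at 6 hours, where bird 6 of the +15 D group was the highest in both its eyes and still had a lower value in the lens eye.

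**Figure D1:**
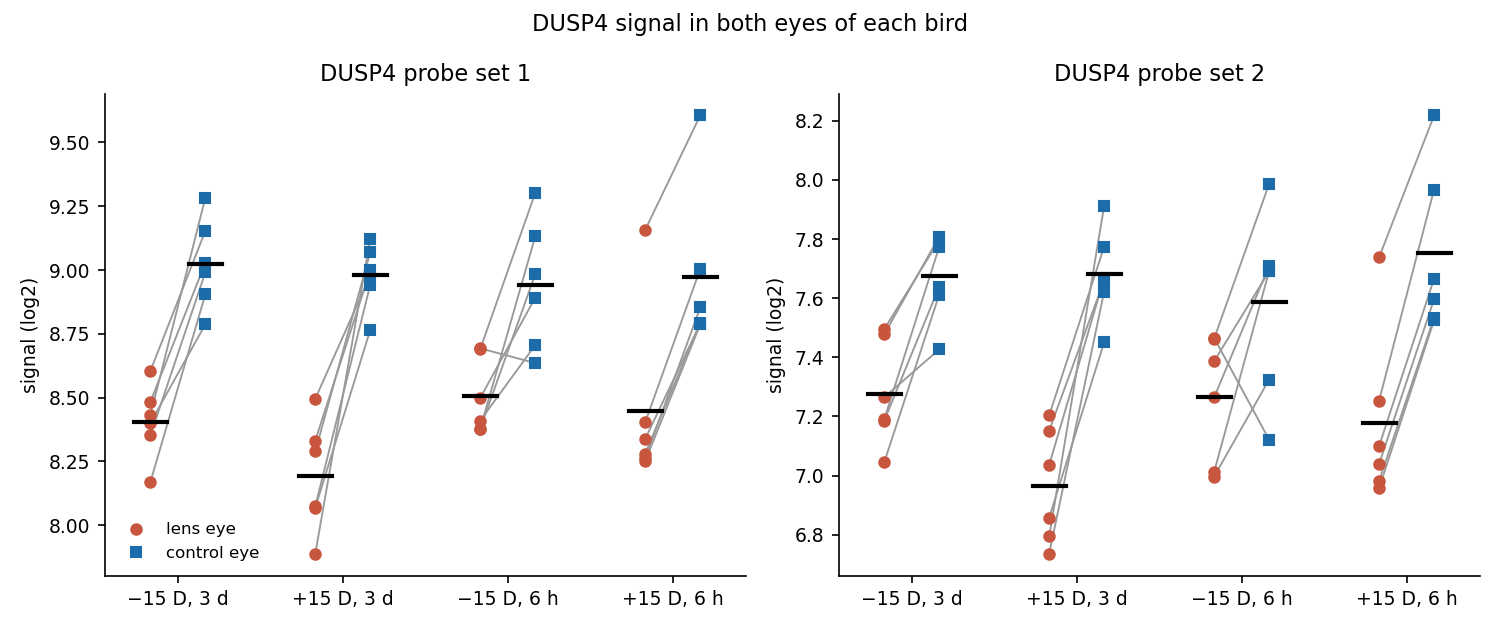
Log2 signal of the 2 DUSP4 probe sets above background in the lens eye (circles) and control eye (squares) of each bird, joined by a line, in the 4 conditions; black bars are means of 6 eyes. All lines rise towards the control eye except that of bird 5 of -15 D for 6 hours.

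Taken bird by bird, the differences in probe set 1 after 3 days of -15 D were -0.39, -0.74, -0.55, -0.64, -0.55 and -0.85, with a mean of -0.62 (SD 0.16). With +15 D for 3 days they were -1.23, -0.87, -0.67, -0.48, -0.70 and -0.78, with a mean of -0.79 (SD 0.25). Every bird of both 3-day groups was lower in the lens eye. After 6 hours of -15 D they were -0.39, -0.61, -0.75, -0.61, 0.06 and -0.30, with a mean of -0.43 (SD 0.29). With +15 D for 6 hours they were -0.60, -0.51, -0.54, -0.45, -0.59 and -0.45, with a mean of -0.52 (SD 0.07). The +15 D birds at 6 hours were the most alike, and bird 5 of -15 D for 6 hours was the single bird with no lower value in the lens eye.

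DUSP4 probe set 2 gave mean differences of -0.40 (SD 0.16) and -0.72 (SD 0.24) after 3 days of -15 D and +15 D, and of -0.32 (SD 0.35) and -0.57 (SD 0.08) after 6 hours of -15 D and +15 D. Bird 5 of -15 D for 6 hours was again the exception, at 0.34. In this probe set the ranges of lens and control eyes overlapped in every condition except 3 days of +15 D. After 3 days of -15 D the highest lens value was 7.49 and the lowest control value 7.43. Without the 3 widely differing birds the mean difference over the conditions was -0.58 in probe set 1 and -0.52 in probe set 2. Probe set 3, below background, gave 0.05, 0.04, -0.06 and -0.08 in the same order of conditions and showed no common direction.

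The order of the 8 group means of DUSP4 probe set 1 put all 4 control groups above all 4 lens groups. The control groups had means of 9.02 (-15 D, 3 days), 8.98 (+15 D, 3 days), 8.97 (+15 D, 6 hours) and 8.94 (-15 D, 6 hours), and neighbours in this order differed by less than the SD within groups, which was 0.12 to 0.32. The lens groups followed at 8.51 (-15 D, 6 hours), 8.45 (+15 D, 6 hours), 8.41 (-15 D, 3 days) and 8.19 (+15 D, 3 days), with SDs of 0.14 to 0.35, and neighbours among them again differed by no more than the larger of their SDs.

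The other phosphatases above background had smaller mean differences than DUSP4. They were lower in the lens eye on average in every condition except -15 D for 6 hours, where they were on average higher. DUSP1, an immediate early gene induced by stress and growth factors, differed between the eyes by -0.17 (SD 0.18) after 3 days of -15 D and -0.15 (SD 0.36) after 3 days of +15 D, and by 0.12 (SD 0.39) after 6 hours of -15 D and -0.15 (SD 0.16) after 6 hours of +15 D. It was lower in the lens eye in 15 of 24 birds, and the spread between birds was as large as the mean difference or larger in each condition. Without the widely differing birds DUSP1 gave -0.24 after 3 days of +15 D and 0.0007 after 6 hours of -15 D.

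DUSP5 probe set 1 had a lowest, median and highest value of 11.0, 11.2 and 11.4 in lens eyes after 3 days of -15 D, against 11.3, 11.5 and 11.5 in control eyes. It was lower in the lens eye of all 6 of these birds, by 0.10 to 0.46, with a mean difference of -0.30 (SD 0.15). The ranges of the 2 groups of eyes overlapped. The difference was -0.11 (SD 0.14) after 3 days of +15 D, 0.09 (SD 0.17) after 6 hours of -15 D and -0.11 (SD 0.22) after 6 hours of +15 D. Without the widely differing birds it was -0.13 after 3 days of +15 D and 0.07 after 6 hours of -15 D. Over all 24 birds the mean difference was -0.11 (SD 0.22), and the lens eye was lower in 15 of them. DUSP5 probe set 2, below background, gave -0.35 (SD 0.42), 0.15 (SD 0.35), 0.08 (SD 0.28) and -0.08 (SD 0.65) in that order of conditions.

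DUSP6 differed by -0.11 (SD 0.12) after 3 days of -15 D, -0.08 (SD 0.04) after 3 days of +15 D, 0.03 (SD 0.08) after 6 hours of -15 D and -0.06 (SD 0.10) after 6 hours of +15 D. The lens eye was lower in 6 of 6 birds after 3 days of +15 D, by 0.03 to 0.14, and in 18 of all 24 birds, with a mean difference of -0.06 (SD 0.10). That SD over the 24 birds was the smallest among the members above background.

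The Sprouty genes were on average level between the eyes. SPRY1 was lower in the lens eye in 12 of 24 birds, with a mean difference of 0.03 (SD 0.18), and SPRY2 in 12 of 24 birds, with a mean of -0.01 (SD 0.17). After 6 hours of +15 D, SPRY1 was higher in the lens eye of 6 of 6 birds by 0.03 to 0.44, with a mean of 0.18 (SD 0.17). The share of all probe sets higher in 6 of 6 birds was not counted. The other conditions gave SPRY1 differences of -0.09 and -0.06 after 3 days of -15 D and +15 D, and 0.06 after 6 hours of -15 D. SPRY2 gave -0.03, -0.10, 0.04 and 0.07 in the order -15 D for 3 days, +15 D for 3 days, -15 D for 6 hours and +15 D for 6 hours, each smaller than its SD of 0.11 to 0.23. The sign at -15 D for 6 hours rested on the widely differing birds for both genes: without them SPRY1 gave -0.04 and SPRY2 -0.04 there. After 3 days of +15 D SPRY1 gave -0.09 and SPRY2 -0.11 without bird 1.

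**Figure D2:**
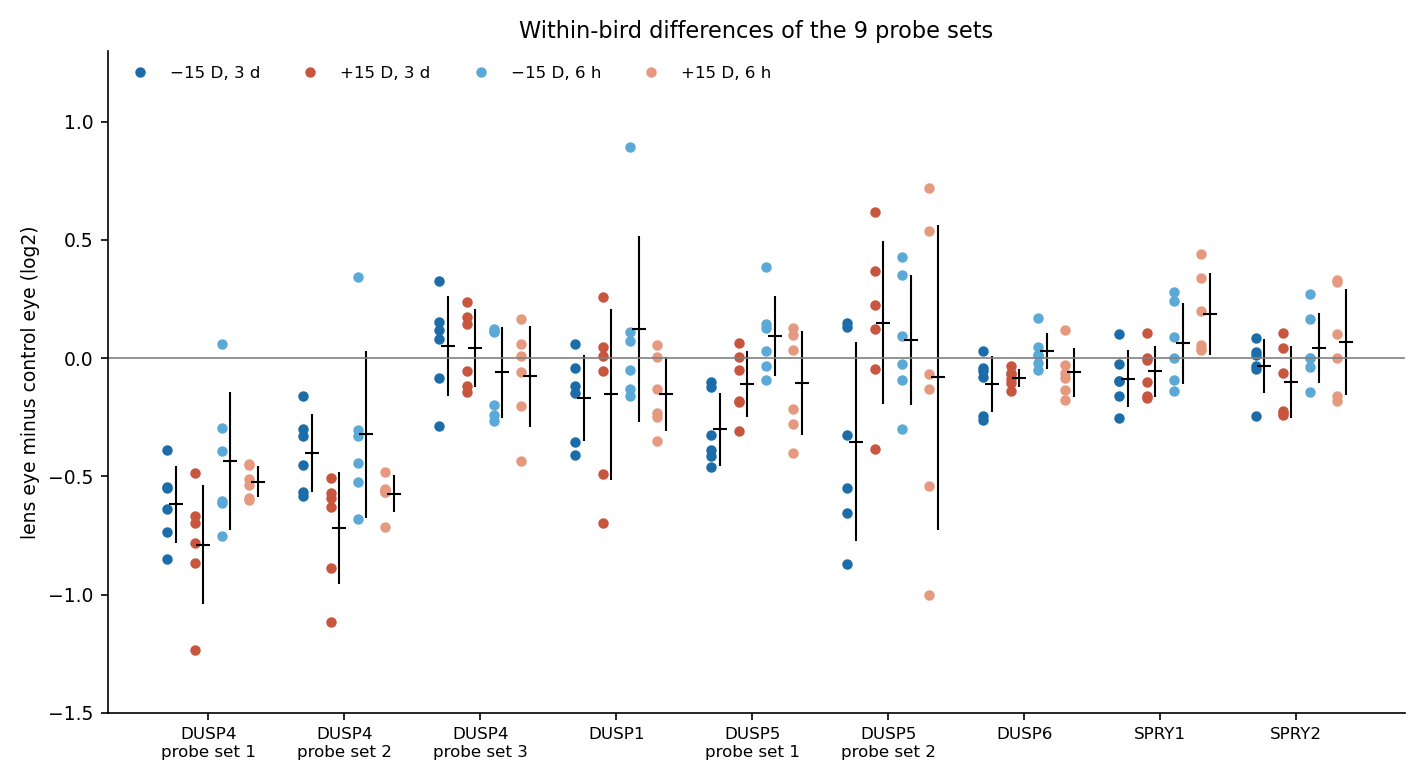
Lens eye minus control eye (log2) for each bird in the 9 probe sets, coloured by condition, with the mean and SD of 6 birds in black beside the points. DUSP4 probe sets 1 and 2 lie below 0 in 23 of 24 birds, while the points of the other probe sets lie on both sides of 0.

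These differences were set in a limma fit with the bird as a block over all 38382 probe sets, where a call is an adjusted p below 0.05 after Benjamini-Hochberg adjustment over all of them. Because DUSP4 was chosen by these contrasts, the calls of members are counts beside the background and nothing is read from them. After 3 days of -15 D, 1 of the 9 was called (DUSP4 probe set 1) and 0.0703% of all probe sets were, and after 3 days of +15 D 2 were (DUSP4 probe sets 1 and 2), with 0.00521% of all. Under -15 D for 6 hours none of the 9 was called by limma (2 had an unadjusted p below 0.05, as had 3885 of all) and 0.0391% of all were. After 6 hours of +15 D 2 were called (the same 2 probe sets of DUSP4), with 0.00782% of all. For the mean of the 4 conditions the count was 2 of 9, again DUSP4 probe sets 1 and 2, with 0.373% of all. At an unadjusted p below 0.05 there were 5 of the 9 after 3 days of -15 D (5457 of all 38382 probe sets) and 2 after 3 days of +15 D (1505). After 6 hours of +15 D there were 3 (2883), and for the mean of the 4 conditions 4 (5171). Lower values in the lens eye of 6 of 6 birds occurred in 3 of 9 members after 3 days of -15 D (6.8% of all probe sets), 3 after 3 days of +15 D (1.63%), none after 6 hours of -15 D (5.29%) and 2 after 6 hours of +15 D (1.48%).

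The 6-hour +15 D calls did not hold in several other settings, and the cause was not tested. Leaving out any 1 of the 6 birds left 0 members called, as did the fit without the bird as a block. So did the fit on the arrays of that condition alone, and that with the actin 3′ to 5′ ratio, an RNA measure, as a covariate. Of all 38382 probe sets, 0 to 1 were called on leaving out a bird and 0 in each of these other fits. In the main fit 3 were. The DUSP4 difference in probe set 1 itself stayed between -0.54 and -0.51 on leaving out a bird. After 6 hours of -15 D, leaving out bird 5 gave a DUSP4 difference of -0.53 and 1 member called. In that fit 2 of all 38382 probe sets were called.

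Whether the lens effect depended on the power or the duration was set in interaction contrasts of the same fit. They use the values that chose DUSP4, so its interactions are given as sizes with 95% intervals and no p. None of the 9 probe sets was called by limma in any of the 4 contrasts. The effect of -15 D minus that of +15 D on DUSP4 after 3 days was 0.17 (95% interval -0.08 to 0.42) in probe set 1 and 0.32 (0.05 to 0.59) in probe set 2. After 6 hours it was 0.09 (-0.16 to 0.34) and 0.25 (-0.02 to 0.52). Without the widely differing birds the 3-day values were 0.08 and 0.24 and the 6-hour values 0.05 and 0.11.

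The effect after 3 days minus that after 6 hours on DUSP4 was -0.18 (-0.43 to 0.06) under -15 D and -0.27 (-0.51 to -0.02) under +15 D in probe set 1. Probe set 2 gave -0.08 (-0.35 to 0.19) and -0.15 (-0.41 to 0.12). Without the widely differing birds probe set 1 gave -0.14 and -0.18, and probe set 2 gave 0.06 and -0.07. The largest interaction among the members above background was that of DUSP5 probe set 1, at -0.39 under -15 D (-0.60 to -0.19, limma adjusted p = 0.264). It passed the threshold with arrays weighted by quality (-0.37, limma adjusted p = 0.0351), where 387 of all 38382 probe sets were called. Without these weights 0.0104% of all probe sets were called for duration under -15 D and 0% in each of the other 3 interactions. By limma 3898 probe sets had an unadjusted p below 0.05 for duration under -15 D, 1332 for duration under +15 D, 3556 for power at 3 days and 1362 for power at 6 hours, and of the members 2, 2, 2 and 0 did.

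In control eyes the inhibitor that differed between the 2 times was SPRY2, which was lower at 3 days. Its lowest, median and highest values were 9.76, 10.05 and 10.18 in the 12 control eyes at 3 days, against 10.18, 10.41 and 10.70 in the 12 at 6 hours. In 11 of the 12 birds at 3 days it was below the lowest 6-hour value. The share of all probe sets separated to this degree was not counted. The means were 10.01 ± 0.12 at 3 days and 10.41 ± 0.17 at 6 hours (SD, n = 12 each), and SPRY2 fell by 0.40 on the log2 scale (SE 0.06, limma adjusted p = 0.000284), or 1.32 times. It was the 1 member called of 9, where 1.85% of all probe sets were called.

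The lower SPRY2 level at 3 days was seen in the birds of both lens powers. In control eyes of -15 D birds it averaged 9.94 ± 0.13 at 3 days and 10.49 ± 0.19 at 6 hours (SD, n = 6 each), a difference of -0.54 (limma adjusted p = 0.00975). In control eyes of +15 D birds it averaged 10.09 ± 0.07 at 3 days and 10.33 ± 0.11 at 6 hours, a difference of -0.25 that did not pass (limma adjusted p = 0.436). The difference between the 2 sets of birds was -0.30 (95% interval -0.53 to -0.07, limma adjusted p = 0.726), and 0% of all probe sets were called in that interaction (2606 of them, and 1 of the 9 members, at an unadjusted p below 0.05).

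SPRY1 was also lower in control eyes at 3 days, at 8.02 ± 0.17 against 8.22 ± 0.20 at 6 hours, but the difference of -0.20 did not pass (SE 0.07, limma adjusted p = 0.221). DUSP5 probe set 1 was at 11.42 ± 0.14 at 3 days and 11.21 ± 0.16 at 6 hours, a difference of 0.21 that did not pass either (SE 0.06, limma adjusted p = 0.0869). It passed with arrays weighted by quality (0.25, limma adjusted p = 0.0190), with the actin 3′ to 5′ ratio as a covariate (0.23, limma adjusted p = 0.0459) and without control bird 5 of +15 D for 3 days (0.24, limma adjusted p = 0.0251). Of all 38382 probe sets, 928, 981 and 684 were called in these settings, in that order, against 711 in the main fit.

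DUSP4 did not differ between the times beyond its spread in control eyes: probe set 1 averaged 9.002 ± 0.15 at 3 days and 8.96 ± 0.28 at 6 hours, a difference of 0.04 (95% interval -0.14 to 0.23, limma adjusted p = 0.891). Probe set 2 gave 0.01 (-0.18 to 0.20). DUSP1 and DUSP6 gave 0.10 (-0.12 to 0.33) and 0.01 (-0.09 to 0.10).

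The lens eyes, which are separate arrays but from the same birds, gave the same direction for both Sprouty genes. SPRY2 averaged 9.95 ± 0.17 in lens eyes at 3 days and 10.47 ± 0.21 at 6 hours (SD, n = 12 each), and fell by 0.52 on the log2 scale (SE 0.08, limma adjusted p = 0.000136). SPRY1 averaged 7.95 ± 0.15 at 3 days and 8.34 ± 0.29 at 6 hours and fell by 0.39 on the log2 scale (SE 0.09, limma adjusted p = 0.0136). These were 2 of the 9 members, where 5.62% of all probe sets were called. DUSP4 probe set 1 in lens eyes was at 8.30 ± 0.21 at 3 days and 8.48 ± 0.26 at 6 hours, a difference of -0.18 that did not pass (limma adjusted p = 0.269).

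**Figure D3:**
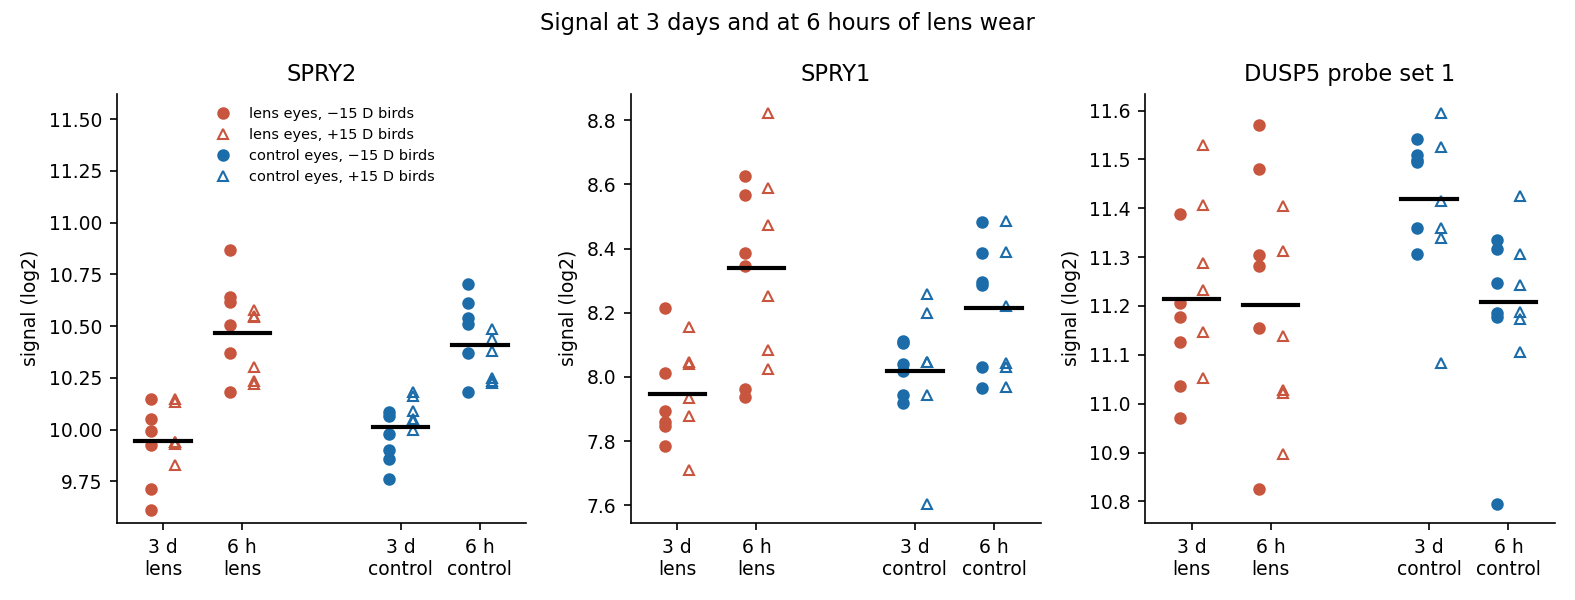
Log2 signal of SPRY2, SPRY1 and DUSP5 probe set 1 at 3 days and 6 hours, in lens eyes (red) and control eyes (blue), with birds of -15 D as filled circles and of +15 D as open triangles; black bars are means of 12 eyes. SPRY2 at 3 days lies between 9.61 and 10.18 in all 24 eyes, against 10.18 to 10.87 at 6 hours.

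Duration of wear, age, cohort and time of day cannot be told apart in this comparison. The marker lists of tissue in the control eyes were close at the 2 times for choroid, vessel and muscle, with a difference of 0.09, and for RPE and pigment, with 0.07. The photoreceptor list (9 of 12 genes measured, all above background) averaged 9.97 at 3 days and 9.76 at 6 hours, a difference of 0.21 whose part in the SPRY2 difference was not tested. With either tissue list as a covariate SPRY2 gave -0.39 and -0.40, and without the widely differing birds -0.37 (limma adjusted p = 0.00204). The lens and anterior segment list (11 of 14 genes measured, 10 above background) averaged 8.02 (range 6.86 to 12.1) at 3 days. At 6 hours it averaged 7.80 (6.77 to 12.6), a difference of 0.23 whose part in the SPRY2 difference was not tested.

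The eyes of a bird differed in the signal of neighbouring tissue and of RPE. The DUSP1 and DUSP4 differences varied with the choroid, vessel and muscle list, and those of DUSP1 and DUSP5 with the RPE and pigment list. Without the widely differing birds the DUSP4 relation with the choroid, vessel and muscle list was weaker (r = -0.30, against -0.59). The DUSP4 difference varied with the RPE and pigment list only when these birds were included. The choroid, vessel and muscle list (18 of 19 genes measured, 15 above background) ranged in its mean level from 5.79 to 9.38 in lens eyes and from 5.54 to 8.54 in control eyes. The RPE and pigment list (14 of 14 measured, 13 above background) ranged from 8.62 to 10.57 in lens eyes and from 8.53 to 9.90 in control eyes. The choroid, vessel and muscle list was higher in lens eyes by 0.84 and 0.25 after 3 days of -15 D and +15 D, and by 0.83 and 0.15 after 6 hours of -15 D and +15 D. The lens and anterior segment list (11 of 14 measured) ranged from 6.73 to 7.19 in lens eyes and from 6.77 to 12.6 in control eyes. The difference of its mean was -0.83, -1.23, -1.40 and -0.30 in that order of conditions, and it was lower in the lens eye of 3, 5, 5 and 4 of 6 birds. Over the mean of the conditions 10 of its 11 genes were below 0 and 0 were called by limma. At an unadjusted p below 0.05 there were 10 of them, and 5171 of all 38382 probe sets. The part of this list in the DUSP4 difference was not tested. None of these relations was planned. They were examined after the values had been seen, as 18 relations of 6 genes with these 2 lists and with the actin 3′ to 5′ ratio, a measure of RNA integrity and priming. The p-values come from 100000 permutations of birds, two-sided and adjusted over the 18. Birds were permuted across the conditions, and both sides of each relation come from the same arrays. The share of all probe sets with relations of such size was not counted.

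DUSP4 is given with no p, since its differences were the values that chose it. Across the 24 birds the DUSP1 difference was larger where the RPE and pigment difference was larger, with Pearson's r = 0.87 (permutation p = 1e-05, the smallest 100000 permutations can give, adjusted p = 0.00018) and Spearman's rho = 0.83 (permutation p = 2e-05, adjusted p = 0.00036). It was 0.83 without the 2 birds farthest from the median of the marker difference, 0.86 without the 3 widely differing birds, and 0.90, 0.89, 0.88 and 0.81 within -15 D for 3 days, +15 D for 3 days, -15 D for 6 hours and +15 D for 6 hours. With choroid, vessel and muscle markers it was 0.71 (rho = 0.59, permutation adjusted p = 0.00078 and 0.0172) and above 0 in 3 of the 4 conditions, with -0.24 after 3 days of -15 D. It was 0.53 without the 2 farthest birds and 0.56 without the 3 widely differing ones. Bird 3 of -15 D for 6 hours had the largest excess of choroid, vessel and muscle markers in its lens eye (3.84) and the largest DUSP1 difference (0.89).

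The DUSP4 difference ran the other way: in probe set 1 it was more negative where the lens eye held more choroid, vessel and muscle signal, with r = -0.59 and rho = -0.49 over 24 birds, a description of points that share arrays. Without the 2 farthest birds r was -0.62, and without the 3 widely differing birds it was -0.30 over 21 birds. Within conditions it was -0.84 and -0.91 after 3 days of -15 D and +15 D and -0.85 after 6 hours of -15 D, but 0.20 after 6 hours of +15 D. With the RPE and pigment list DUSP4 had r = -0.42 and rho = -0.44 over 24 birds, and r = -0.07 without the 3 widely differing birds. Within conditions that r was -0.02 and -0.80 after 3 days of -15 D and +15 D. After 6 hours of -15 D and +15 D it was -0.84 and 0.40.

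With the level of the choroid, vessel and muscle list on each array as a covariate in the limma fit, the mean DUSP4 difference was -0.54, against -0.59 without it, and with the RPE list it was -0.59. Bird 5 of -15 D for 6 hours, the exception, had less choroid, vessel and muscle signal in its lens eye (difference -1.94) and less lens and anterior segment signal (-5.55). Bird 4 of -15 D for 3 days and bird 3 of +15 D for 3 days also had less lens and anterior segment signal in the lens eye (-4.91 and -4.97), and their DUSP4 differences were -0.64 and -0.67. Bird 4 of +15 D for 3 days had a choroid, vessel and muscle difference of -2.50 and a DUSP4 difference of -0.48. For bird 2 of +15 D for 6 hours these were -1.57 and -0.51. The part of either list in the exception was not tested.

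**Figure D4:**
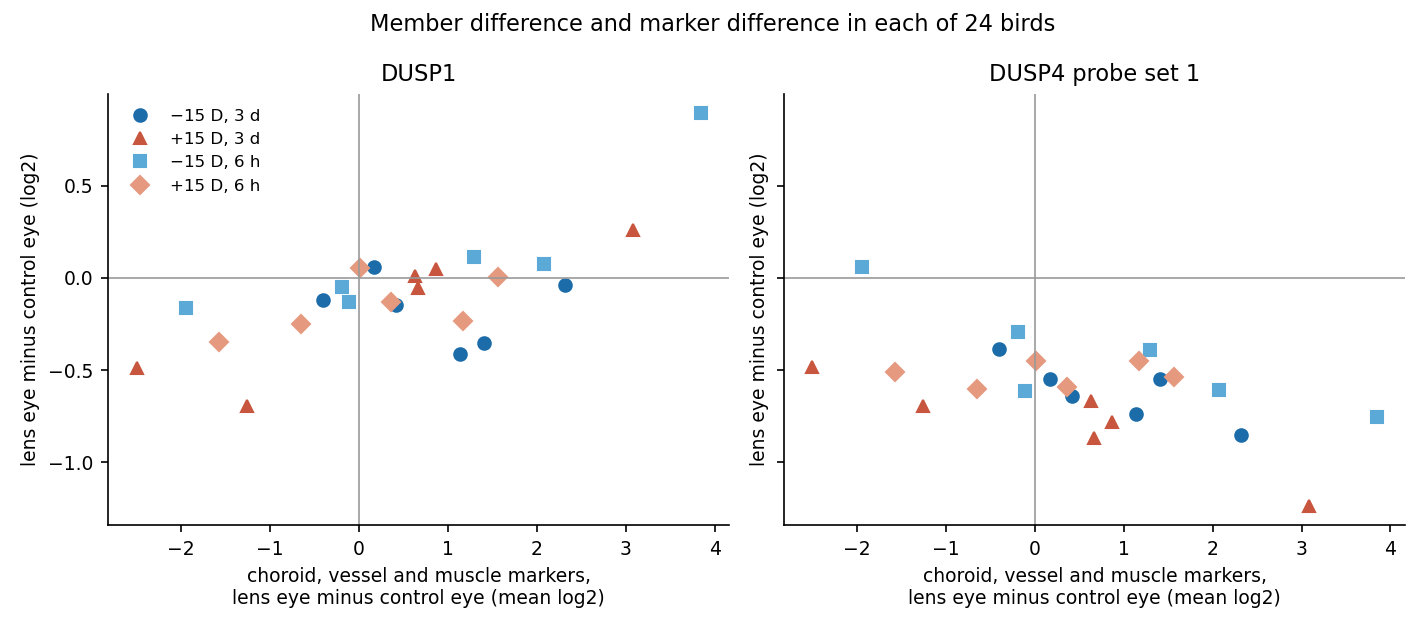
Lens eye minus control eye (log2) in each of 24 birds for DUSP1 and DUSP4 probe set 1, against the same difference of the mean of the choroid, vessel and muscle markers; symbols give the condition. DUSP1 rises with the marker difference (r = 0.71) and DUSP4 falls (r = -0.59). Without the 3 widely differing birds these r are 0.56 and -0.30.

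DUSP5 probe set 1 moved with the RNA measure. Its difference between the eyes was lower where the actin 3′ to 5′ ratio was higher in the lens eye, with r = -0.73 and rho = -0.74 (permutation p = 6e-05 and adjusted p = 0.00054 for each) r = -0.72 without the 2 farthest birds and r = -0.68 without the 3 widely differing ones. Within conditions r was 0.05 and -0.63 after 3 days of -15 D and +15 D, and -0.89 and -0.87 after 6 hours of -15 D and +15 D. The ratio was higher in the lens eye of 6 of 6 birds after 3 days of -15 D (mean 0.32), the condition with the lowest DUSP5 difference. With the ratio as a covariate the DUSP5 difference there was -0.17, against -0.30 without it. Lens and ratio went together in these birds, so their parts cannot be told apart. The part of RNA integrity in the DUSP5 difference was not tested. DUSP5 also differed with the RPE and pigment markers, with r = 0.63 and rho = 0.51 (permutation adjusted p = 0.00477 and 0.0405), with 0.49 without the 2 farthest birds and 0.54 without the 3 widely differing ones. With the choroid, vessel and muscle markers its relation did not pass (r = 0.33, rho = 0.17, permutation adjusted p = 0.261 and 0.75). Without the 2 farthest birds that r was 0.04. Within conditions it was 0.37 and 0.43 after 3 days of -15 D and +15 D, and 0.74 and 0.27 after 6 hours of -15 D and +15 D. DUSP6 and SPRY2 had no relation with an adjusted permutation p below 0.05, and SPRY1 had one by rank only, with the actin ratio (rho = -0.55, permutation adjusted p = 0.0254, against r = -0.47, 0.0634).

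Over the mean of the 4 conditions, most other genes of the pathway lay close to 0 between the eyes. Each gene was followed through its brightest probe set, in 5 lists chosen with earlier results known. By limma none of these genes passed in any single condition. Over the mean of the 4 conditions, 0 of 8 measured other MAP kinase phosphatases passed (of 10 listed, median difference 0.02), 0 of 11 other feedback inhibitors of receptor kinase signalling (of 13, median -0.003), 0 of 17 genes of the ERK cascade (of 23, median -0.01) and 0 of 15 kinases of the JNK, p38 and ERK5 branches (of 17, median -0.01). At an unadjusted p below 0.05 there were 0, 2, 4 and 1, and 5171 of all 38382 probe sets. The median of all probe sets tested was -3.9e-05. By condition, all 8 other MAP kinase phosphatases were above 0 after 3 days of -15 D (median 0.075), where 46.6% of all probe sets were below 0. After 3 days of +15 D 3 of the 8 were above 0, and after 6 hours of -15 D and +15 D 5 and 4 were. These counts depended on the use of the brightest probe set. By the median of the probe sets of each gene, 3 of the 8 were below 0 after 3 days of +15 D. By that measure 1 and 2 were below 0 after 6 hours of -15 D and +15 D, and 0 after 3 days of -15 D.

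Of 16 measured transcripts known to be induced by ERK activity (of 27 listed, median -0.05), 3 passed over the mean of the 4 conditions, 2 lower and 1 higher in the lens eye, where 0.373% of all probe sets were called. At an unadjusted p below 0.05 there were 7 of the 16, and 5171 of all 38382 probe sets. EGR1, an immediate early transcription factor, averaged 11.5 in lens eyes and 11.8 in control eyes and was lower in 21 of 24 birds, by a mean of -0.33 (SD 0.26). ARC, an activity-induced gene of synapses, averaged 4.32 in lens eyes, below background, and 4.90 in control eyes, and was lower in 20 of 24 birds by a mean of -0.58 (SD 0.41), a size that is not exact because the lens-eye level lies below background. JUN, a subunit of the AP-1 transcription factor, averaged 11.09 in lens eyes and 10.97 in control eyes and was higher in 21 of 24 birds, by a mean of 0.12 (SD 0.11).

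**Figure D5:**
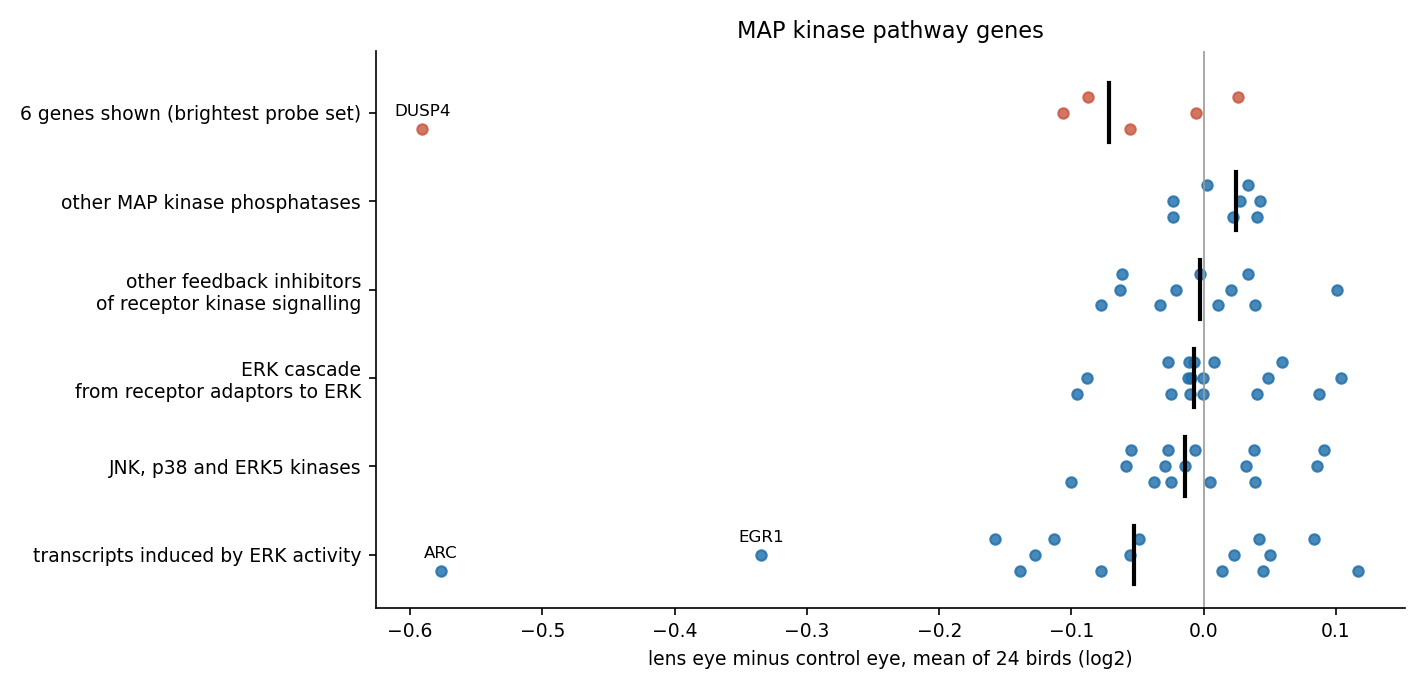
Mean lens eye minus control eye (log2) over 24 birds for the 6 feedback inhibitors (top, brightest probe set) and for the measured genes of 5 pathway lists; each point is a gene and black bars are medians. DUSP4 (-0.59) and EGR1 (-0.33) lie left of 0, as does ARC (-0.58), whose lens-eye level is below background.

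Between the times, the control eyes gave 7 calls among these lists, where 1.85% of all probe sets were called. DUSP14, an atypical dual-specificity phosphatase, averaged 10.76 at 3 days and 11.06 at 6 hours and fell by 0.30 on the log2 scale. The transcripts induced by ERK activity gave 3 calls of 16, all higher at 3 days: EGR1 with a mean of 12.10 at 3 days and 11.52 at 6 hours (0.59), the stress-induced factor ATF3 with 6.83 at 3 days and 6.22 at 6 hours (0.61), and the ETS factor ETV4 with 7.30 at 3 days and 6.84 at 6 hours (0.46). Among kinases, the ribosomal S6 kinase RPS6KA1 rose by 0.25, the JNK and p38 activator MAP3K5 by 0.56, and the p38 family member MAPK12 fell by 0.33. None of the 11 other feedback inhibitors was called by limma in control eyes. None had an unadjusted p below 0.05, where 5175 of all 38382 probe sets did. In lens eyes 4 of the 11 were called, where 5.62% of all probe sets were, with SPRED1 (-0.18) and SPRED2 (-0.53), relatives of the Sproutys, lower at 3 days, and the RAS GTPase-activating proteins RASA1 (0.25) and NF1 (0.44) higher.

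The 5 named genes whose within-bird differences followed those of DUSP4 probe set 1 most closely over the 24 birds, among 11772 genes above background, were TSPEAR (r = 0.85), PI4K2A (0.84), VWC2 (0.84), RASD1 (0.84) and TMEM196 (0.81). The second DUSP4 probe set had r = 0.81. Without the 3 widely differing birds the values were 0.65, 0.67, 0.64, 0.64 and 0.49, and 0.53 for the second DUSP4 probe set. The mean differences of these genes between the eyes were 0.02, 0.02, -0.01, -0.03 and -0.18, each smaller in size than that of DUSP4. Only PI4K2A stayed among the first 5 after the mean of each condition was subtracted. By their probe sets above background, the other 5 feedback inhibitors had r with DUSP4 between -0.24 (DUSP1) and 0.38 (DUSP6) over the same birds. Without the 3 widely differing birds their r lay between 0.02 (DUSP6) and 0.29 (SPRY2), with DUSP1 at 0.08. All these points share arrays and tissue amounts, and they are descriptions with no test.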

How the data were processed

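Total RNA (100 ng) of retina and RPE was amplified with the NuGEN Ovation kit and hybridised as biotinylated cDNA, per the labels' protocols. The deposited values are log2 signals made by the authors with RMA in Partek, per the submitters' processing notes, which give no versions. They were used as deposited. RMA was thus applied by the authors to all arrays before any step here, and it narrows differences of dim probe sets. Genes were named through the platform annotation (27168 probe sets with 1 gene, 177 with several, 11037 with none), and 153 control probe sets were left out. The members and lists were chosen with earlier results of these data known.

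Lens and control eyes were compared with limma 3.58.1 (R 4.3.3; lmFit and eBayes) over 48 arrays with the bird as a block, and control eyes at 3 days and 6 hours over 24 arrays, with Benjamini-Hochberg adjustment over 38382 probe sets. The pairing comes from the labels, where 1 animal gave both eyes; the 2 eyes' deviations from the means of their groups correlated above 0.1 in 20 of 24 birds (median 0.42, range -0.23 to 0.85). The named genes are all probe sets of the 6 genes, list genes called by limma, and the 5 genes most like DUSP4. Correlations used scipy 1.17.1. The fits were tested on simulated data. The number of arrays limits the precision. Alternatives were the block, centring, a filter, array weights, subsets of arrays and, added after seeing the data, omission of 3 birds and covariates for RNA and tissue. No sequences or coordinates are given.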

Additional observations from a re-analysis of the deposited data

Results flagged for a closer look

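Single eyes or birds stood far from the other 5 of their group in 6 of 108 groups of 6 examined by Dixon's test, and chance gives about 1 in 20. In the within-bird differences there were 2 of 36. Bird 5 of -15 D for 6 hours had a DUSP4 probe set 2 difference of 0.34, where the other 5 birds were below 0. Bird 3 of the same condition had a DUSP1 difference of 0.89. In the levels there were 4 of 72. Bird 6 of +15 D for 6 hours had the highest DUSP4 probe set 1 level of its group in both eyes, at 9.16 in the lens eye and 9.61 in the control eye. Bird 1 of +15 D for 3 days had a DUSP1 level of 10.89 in its lens eye. The control eye of bird 6 of -15 D for 6 hours had a DUSP5 probe set 1 level of 10.80, below the other 5.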

How the results depend on the processing

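The DUSP4 difference over the 4 conditions lay between -0.59 and -0.54 under 8 other settings and between -0.62 and -0.57 on leaving out any 1 bird. No called value of a member changed sign, and neither DUSP4 probe set above background did so in its lens-minus-control differences (0 of 184 values under other settings). These settings reuse the arrays on which DUSP4 was chosen for that sign, so nothing is read from its stability. Values that were not called changed sign in 26 of 634 such differences of the other probe sets (DUSP1 at -15 D for 6 hours gave -0.03 without bird 3, against 0.12), in 3 of 160 DUSP4 interactions and 54 of 552 others, and in 11 of 70 DUSP4 control-eye values and 22 of 243 others. The counts of the 9 members called moved with the settings, and the cause was not tested beyond what each setting does. For -15 D at 6 hours the count was 1 with probe sets above the median only (102) and 2 with array weights (296). It was 1 without the widely differing birds (2), and 0 to 1 on leaving out a bird (0 to 16). For +15 D at 6 hours it was 0 without the replicate block (0) and 0 with only the arrays of the condition (0). It was 0 with the actin covariate (0), and 0 on leaving out any bird (0 to 1). For -15 D at 3 days it was 0 without the replicate block (0), 3 with probe sets above the median (381) and 3 with array weights (2284). It was 2 with only the arrays of the condition (656) and 3 without the widely differing birds (233). It was 2 with the vessel and muscle covariate (174) and 3 with the RPE covariate (360). For +15 D at 3 days it was 0 with only the arrays of the condition (0). For duration under -15 D it was 1 with array weights (387). In control eyes between the times it was 2 in lens eyes instead (2158), 2 with array weights (928) and 2 with the actin covariate (981). It was 0 in +15 D birds alone (49), where SPRY2 gave -0.25 (limma adjusted p = 0.436). On leaving out a bird it was 1 to 2 (528 to 1069), with 2 without control bird 5 of +15 D for 3 days (684). With 6 birds a condition, a difference the size of that of DUSP6 was not called.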
